A study of Mus musculus with 2 samples.

Results

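Ebf1, Ebf2, Ebf3, Foxc1, Prrx1 and Runx1 are 6 transcription factor genes known for the identity of bone marrow stromal cells, taken as a list by name from the 32285 genes of the count tables. Their levels were described across the cells of 1 sample of mouse bone and marrow: LEPR stromal cells, fibroblast-like, endothelial-like, megakaryocyte-like and erythroid-like cells. The sample came from 3 untreated male INK-ATTAC mice aged 24 months on a C57BL/6N background, whose femurs and tibiae were digested, pooled, depleted of lineage-positive blood cells and sorted as live CD45- cells, and it was run on droplet 3′ single-cell RNA-seq in 2 lanes. The labels number the deposited lanes as replicates 1 and 2, although the pool was the same. INK-ATTAC mice carry an inducible caspase 8 transgene under the p16Ink4a promoter, so all cells here carry it, and no drug that activates it was given to these mice. The lanes held the same cells, with 10928 of 11056 barcodes in both, so the lanes were summed per barcode and are not replicates. There was 1 biological sample and therefore no test between conditions. The intervals given are exact 95% intervals that cover counting error only, and the lane values show technical spread.

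Of the 11056 barcodes, 9573 had at least 200 genes and at most 20% mitochondrial UMIs, where a UMI is 1 captured transcript molecule. Levels are in CPM, the UMIs of a gene over all UMIs of the same cells, scaled to one fixed total. LEPR stromal cells were the 1877 of these with at least 1 UMI of Lepr, the leptin receptor, and at least 5000 CPM of Cxcl12, the chemokine that retains blood stem cells in marrow. Neither gene is among the 6. The 12 markers of LEPR+ stromal cells each had a UMI in at least 10% of these cells; Lepr and Cxcl12, which the gate fixes, are among the 12, and the other 10 were not used in it. The limits were not sharp: 76 of the 1877 cells had under 7500 CPM of Cxcl12, and 90 further cells with Lepr lay from 2500 to under 5000 CPM. The gated cells also held 2609 CPM of 14 erythroid markers, of which 8 were in at least 10% of cells, and the part of this RNA in their levels was not tested. The other classes were clusters named from marker genes, without the gated cells: 40 fibroblast-like cells led by Ccl11, Pi16, Tnxb and Clec3b, 56 endothelial-like cells led by Cdh5 and Ptprb, 130 megakaryocyte-like cells led by Pf4, and 6427 erythroid-like cells in 8 clusters. A further 201 cells lay in clusters named LEPR+ stromal-like but outside the gate, 133 of them with no Lepr UMI and 130 under the Cxcl12 limit, and enter no comparison. They had a median of 2287 UMIs and 7.31% mitochondrial UMIs, and 8.96% were called doublets. Further small clusters were named osteoblast/osteocyte-like, with 30 cells, and chondrocyte-like, with 61 cells. Median UMIs per cell were 5188 in LEPR stromal, 9626 in fibroblast-like, 4074 in endothelial-like, 8639 in megakaryocyte-like and 28718 in erythroid-like cells.

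As background, the marrow stroma of adult mice holds perivascular cells marked by the leptin receptor, which make Cxcl12, stem cell factor (Kitl) and interleukin 7 and can give rise to bone and fat cells. EBF proteins are helix-loop-helix factors of which EBF1 is also the central factor of early B cells, and EBF1 and EBF3 act in marrow stroma to keep the niche and to hold back bone formation. FOXC1 is a forkhead factor required for the same cells, PRRX1 is a homeodomain factor of limb mesenchyme, and RUNX1 is a runt-domain factor best known in blood stem cells, megakaryocytes and early blood cells, with RUNX2 as its relative in bone.

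In the GENCODE M21 annotation of GRCm38, Ebf1 (ENSMUSG00000057098) lies on chromosome 11 from 44617317 to 45008091, Ebf2 (ENSMUSG00000022053) on chromosome 14 from 67233292 to 67430918, and Ebf3 (ENSMUSG00000010476) on chromosome 7 from 137193673 to 137314445. Foxc1 (ENSMUSG00000050295) lies on chromosome 13 from 31806633 to 31812476, Prrx1 (ENSMUSG00000026586) on chromosome 1 from 163245119 to 163313710, and Runx1 (ENSMUSG00000022952) on chromosome 16 from 92601466 to 92826149. Ebf3, Prrx1 and Runx1 are on the minus strand. Foxc1 has 1 annotated transcript, while the other members have 4 to 8. Gm26523 and Gm37644 overlap Prrx1 on its own strand, so reads there could be split between them. The promoters of 4 members are shown because each holds letters that a factor of the list itself is known to bind. They are the RefSeq windows of GRCm38.p6 from 250 bases before to 50 after an annotated start, and 7 such windows matched 5 of the members. The windows not shown, a second one each of Ebf1 and Runx1 and that of Ebf3, hold neither motif. Capitals mark TGTGGT, the RUNX letters, or TAATTA, the homeodomain letters, on either strand, so ACCACA is the RUNX match on the other strand.
Ebf1, chr11:44617850-44618149, plus strand: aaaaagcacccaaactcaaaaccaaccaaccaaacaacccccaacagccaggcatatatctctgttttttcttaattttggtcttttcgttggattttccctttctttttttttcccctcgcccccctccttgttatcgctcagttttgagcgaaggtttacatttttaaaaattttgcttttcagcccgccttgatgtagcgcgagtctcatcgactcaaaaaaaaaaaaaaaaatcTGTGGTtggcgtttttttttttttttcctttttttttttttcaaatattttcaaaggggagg
Foxc1, chr13:31806396-31806695, plus strand: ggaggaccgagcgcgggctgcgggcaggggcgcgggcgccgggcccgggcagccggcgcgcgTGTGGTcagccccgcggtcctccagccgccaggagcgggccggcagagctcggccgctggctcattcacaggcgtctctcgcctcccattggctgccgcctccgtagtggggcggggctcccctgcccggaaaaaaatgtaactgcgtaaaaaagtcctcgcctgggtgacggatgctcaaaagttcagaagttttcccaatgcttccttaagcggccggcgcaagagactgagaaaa
Prrx1, chr1:163313601-163313900, minus strand: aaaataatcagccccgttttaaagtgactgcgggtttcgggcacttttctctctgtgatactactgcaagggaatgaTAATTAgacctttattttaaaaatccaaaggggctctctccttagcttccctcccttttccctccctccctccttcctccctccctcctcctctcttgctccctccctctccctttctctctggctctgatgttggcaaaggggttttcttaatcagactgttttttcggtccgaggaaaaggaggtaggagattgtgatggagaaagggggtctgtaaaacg
Runx1, chr16:92826025-92826324, minus strand: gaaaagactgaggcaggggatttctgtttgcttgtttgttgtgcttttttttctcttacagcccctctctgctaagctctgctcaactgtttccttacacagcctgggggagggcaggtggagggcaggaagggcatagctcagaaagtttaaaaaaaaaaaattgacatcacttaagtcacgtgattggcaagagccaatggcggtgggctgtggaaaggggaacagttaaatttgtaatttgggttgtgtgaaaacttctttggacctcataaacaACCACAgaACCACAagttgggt
The match starts 12 bases before the start of Ebf1, 188 before that of Foxc1 and 173 before that of Prrx1, and the Runx1 window of this start, the upstream of the 2 listed, holds 2 RUNX matches in its last 50 bases. Of the 7 windows 3 hold TGTGGT and 1 holds TAATTA; among 32851 promoter windows of the same length, 16.8% and 5.29% do. With so few windows, nothing is read from these shares. The EBF letters, TCCC and GGGA with 2 bases between them, found in 0.904% of all windows, and the forkhead letters TGTTTAC, found in 3.65%, are in none of the 7. These are letter matches, and no binding was measured.

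Across the classes, the 6 genes fell into 3 patterns. Ebf3, Foxc1 and Runx1 were at least 4-fold higher in LEPR stromal cells than in fibroblast-like and in endothelial-like cells. Ebf1 and Prrx1 were close in LEPR stromal and fibroblast-like cells, and Ebf2 was higher in fibroblast-like cells. The 4-fold calls of Runx1 and Ebf2 against fibroblast-like cells were lost under some other clustering settings, given below. All 6 were at least 4-fold higher in LEPR stromal than in megakaryocyte-like and in erythroid-like cells, except that Ebf1 missed 4-fold over megakaryocyte-like cells when the CPM was averaged over cells (log2 1.48) and when thinned (log2 1.39). For comparison, among all genes with at least 50 UMIs over both classes, 8.13% of 9602 were at least 4-fold higher in LEPR stromal than in fibroblast-like cells, where 3 of the 6 members were. The share was 7.3% of 9579 genes against endothelial-like cells, also with 3 of 6 members, 23.2% of 10213 against megakaryocyte-like and 30.1% of 12414 against erythroid-like cells. In the other direction, 2.28% of genes and 1 of 6 members were at least 4-fold higher in fibroblast-like cells. The members' median log2 ratio over fibroblast-like cells was 1.36 against 0.27 for all genes, and over endothelial-like cells it was 2.41 against 0.05. Over fibroblast-like cells the single ratios ran from -3.56 for Ebf2 to 4.13 for Ebf3, so the median describes no member. As the members were chosen with earlier results of these data known, nothing is read from their contrast with all genes.

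**Figure D1:**
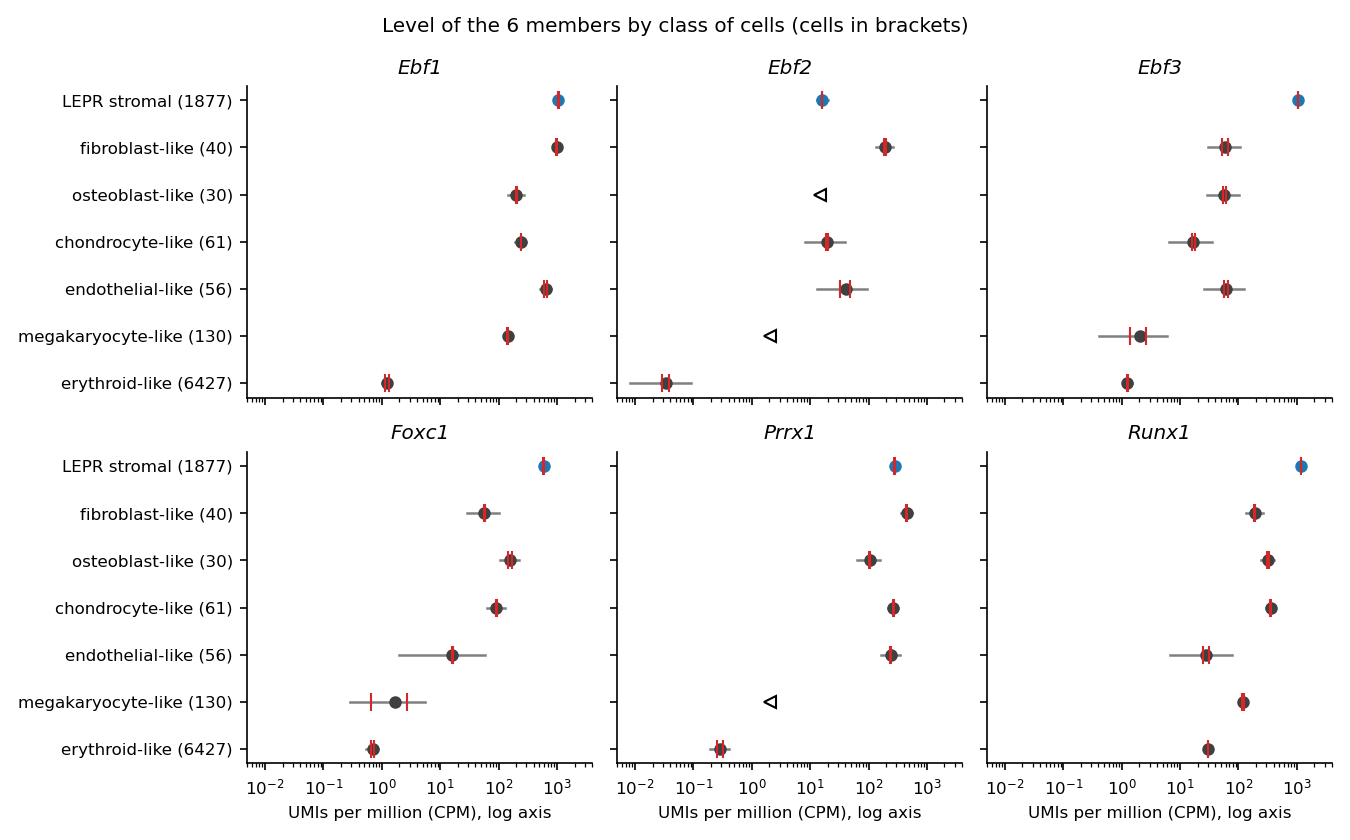
Level of each member in CPM (log axis) in 7 classes of cells. Points are the mean of the lanes, grey bars exact 95% counting intervals and red ticks the single lanes; open triangles mark the upper limit that a count of 0 allows. Ebf3 stood at 1039 CPM in LEPR stromal cells and at 60.7 CPM or less in every other class drawn.

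**Figure D2:**
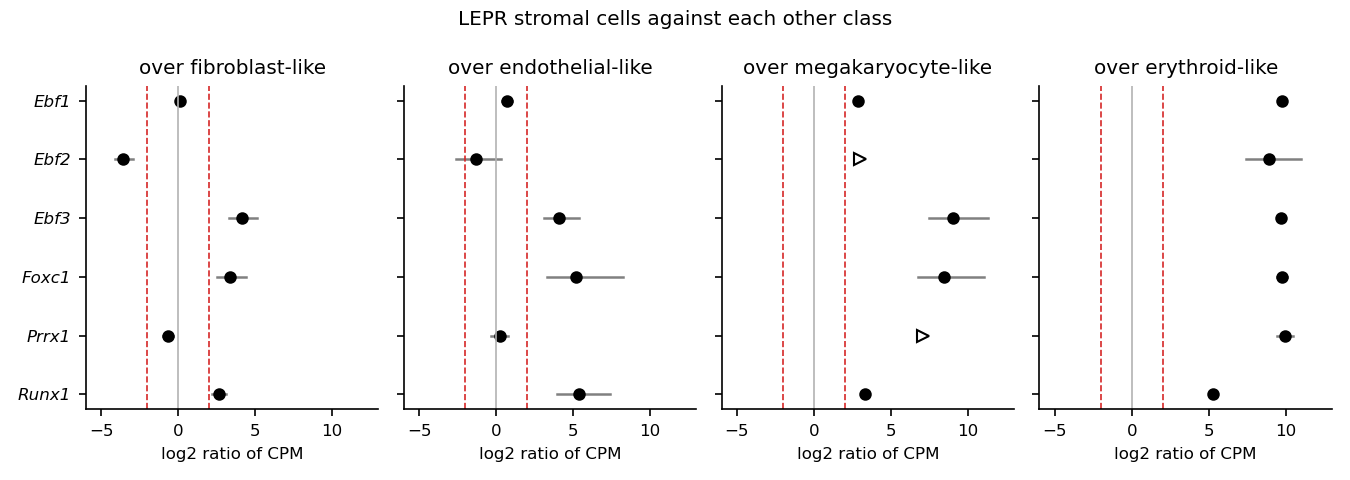
log2 ratio of CPM in LEPR stromal cells over each of 4 classes, with exact 95% counting intervals; dashed lines mark 4-fold and open triangles are lower bounds where the other class had no UMI. Against fibroblast-like cells 3 members lay past 4-fold to the right and Ebf2 past it to the left.

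Ebf3 was the EBF gene that set LEPR stromal cells apart from the other mesenchymal cells. In LEPR stromal cells, lane 1 gave 1033 and lane 2 gave 1044 CPM of Ebf3, and 90.8% of cells had a UMI. In fibroblast-like cells the lanes gave 52.3 and 65.8 CPM, in endothelial-like cells 65.8 and 55.7, and in osteoblast/osteocyte-like cells 60.5 and 53.9. These 3 classes had overlapping intervals, and the chondrocyte-like cells, at 16.9 CPM, overlapped with them too. LEPR stromal cells had 17.6-fold more Ebf3 than fibroblast-like cells (interval 9.93 to 34.6), and 17.1-fold more than endothelial-like cells (interval 8.50 to 41.0). With every cell thinned to 2000 UMIs of lane 1, which left 1295 LEPR stromal and 39 fibroblast-like cells, the share of cells with an Ebf3 UMI was 83.6% against 9.89%. Of the erythroid-like cells, whose depth was greater, 2.75% had a UMI. Over megakaryocyte-like cells, with 2 and 4 UMIs in the lanes, the ratio was 514 (interval 176 to 2494).

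Ebf1 was high in both mesenchymal classes. It stood at 1068 and 1039 CPM in the 2 lanes of the LEPR stromal cells and at 1014 and 962 CPM in the fibroblast-like cells, a ratio of 1.07 with an interval of 0.923 to 1.24. All 40 fibroblast-like cells and 90.1% of LEPR stromal cells had a UMI, and at 2000 UMIs per cell the shares were 81.8% and 82.4%. Endothelial-like cells followed at 639 CPM, then chondrocyte-like cells at 241 and osteoblast/osteocyte-like cells at 201 CPM, which overlapped with each other. The LEPR stromal level was 1.65-fold that of endothelial-like cells (interval 1.32 to 2.08). When the chondrocyte-like and osteoblast/osteocyte-like cells were counted as fibroblast-like, the log2 ratio over that class went from 0.09 to 1.34. Of the erythroid-like cells 1.91% had an Ebf1 UMI.

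Ebf2, known from brown fat and bone precursors, went the other way. Fibroblast-like cells had 183 and 198 CPM in the lanes, with a UMI in 28 of 40 cells, and LEPR stromal cells had 15.9 and 16.3 CPM, with a UMI in 6.07% of cells. The fibroblast-like level was 11.8-fold higher (interval 7.82 to 17.6). Chondrocyte-like cells at 19.4 CPM overlapped with LEPR stromal cells. No UMI was counted in the 30 osteoblast/osteocyte-like cells, whose interval reached 18.3 CPM. Endothelial-like cells held 4 and 6 UMIs, and their ratio to LEPR stromal cells had an interval that included 1 (log2 -1.33, interval -2.61 to 0.33). None was counted in megakaryocyte-like cells, and by the lower limit of the interval LEPR stromal cells were at least 6.34-fold higher. Ebf2 was no longer 4-fold higher in fibroblast-like cells with the listed factors kept in the clustering, at resolutions of 0.4 and 1.2, with log-normalized counts, with its cluster not split, or with chondrocyte-like and osteoblast/osteocyte-like cells added, where the log2 ratio lay from -1.91 to -1.77. Ebf4 had 2.5 UMIs, as the mean of the lanes, in all LEPR stromal cells.

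The make-up of the EBF family therefore differed between the classes. The shares are compared between classes and not between genes. In LEPR stromal cells 49.95% of the EBF UMIs were Ebf1, 0.763% Ebf2 and 49.3% Ebf3 (interval 48.3 to 50.2). In fibroblast-like cells they were 79.8%, 15.4% and 4.78% (interval 2.45 to 8.30).

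The Ebf1 level of the megakaryocyte-like cells came from a few barcodes. Both lanes gave 212 UMIs, or 145 and 141 CPM, but these lay in 15 of 130 cells, with up to 56 UMIs in a cell. In 12 of the 130 cells at least 3 of 8 B cell markers had a UMI, a rule chosen after the values were seen. Those 12 cells held 208.5 of the 212 Ebf1 UMIs and stood at 2687 CPM, all 12 had UMIs of Cd79a and Pax5, and 1 of 12 had a UMI of the platelet gene Pf4. The other 118 cells, of which 107 had a Pf4 UMI, held 3.5 Ebf1 UMIs, or 2.49 CPM. With all 130 cells LEPR stromal cells had 7.38-fold more Ebf1 (log2 2.88), and without the B-marked barcodes the log2 ratio was 8.73. The B cell markers do not include any EBF gene, and the sort had been for CD45- cells. Across all kept barcodes, 42 were B-marked, 23 of them plasma cell-like, and 27 of the 42 had an Ebf1 UMI.

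**Figure D3:**
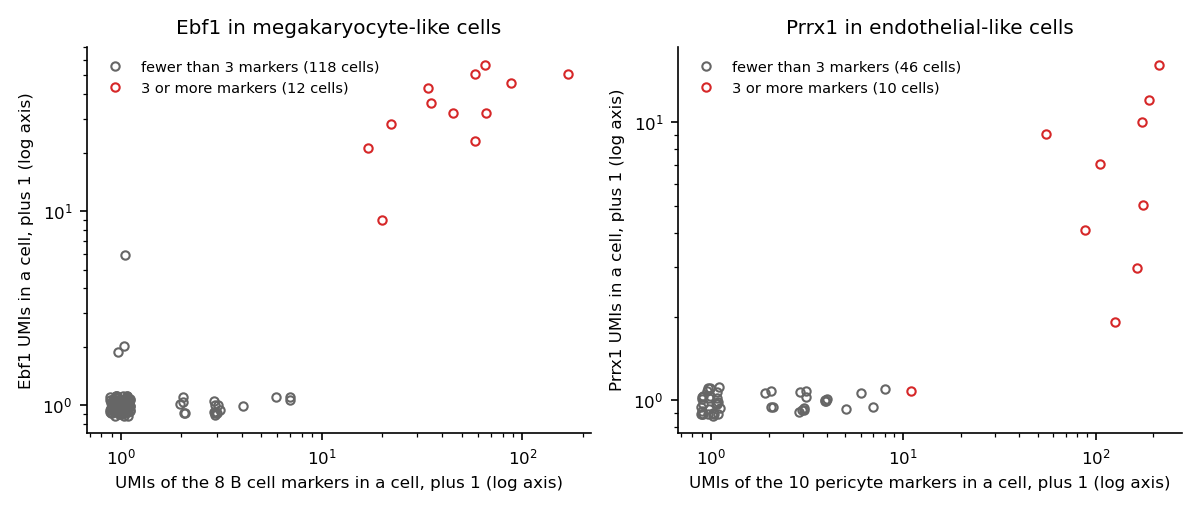
Each point is 1 cell, plotted by its UMIs of a marker list against its UMIs of a member, both lanes summed, plus 1, on log axes with a small random shift; red cells have at least 3 markers. On the left the 12 B-marked megakaryocyte-like cells carry nearly all Ebf1 UMIs of that class, and on the right 9 of the 10 pericyte-marked endothelial-like cells carry all Prrx1 UMIs of theirs.

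Foxc1 had the same order of classes as Ebf3 at its ends and another in between. LEPR stromal cells had 602 and 579 CPM in the lanes, with a UMI in 81.9% of cells. Osteoblast/osteocyte-like cells came next, at 146 and 167 CPM, then chondrocyte-like cells at 89.5 and 94.5 CPM and fibroblast-like cells at 57.5 and 55.7 CPM, each overlapping with its neighbour. Endothelial-like cells held 2 UMIs in each lane. The ratio of LEPR stromal over fibroblast-like cells was 10.4 (interval 5.82 to 20.9), and over endothelial-like cells 36.5 (interval 10.1 to 301). Over megakaryocyte-like cells it was 350.4 (interval 109 to 2108). Its relative Foxc2, a factor of vessels and mesenchyme, had 1.49% of the FOXC UMIs in LEPR stromal cells.

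Prrx1 was spread more evenly over mesenchymal cells. Fibroblast-like cells had 450 and 446 CPM, LEPR stromal cells 273 and 285, chondrocyte-like cells 271 and 261, and osteoblast/osteocyte-like cells 101 and 108 CPM. LEPR stromal and chondrocyte-like cells overlapped. The fibroblast-like level was 1.60-fold that of LEPR stromal cells (interval 1.28 to 1.99), short of 4-fold. Its direction turned when the chondrocyte-like and osteoblast/osteocyte-like cells were counted as fibroblast-like, with a log2 ratio of LEPR stromal over fibroblast-like cells of 0.051 in place of -0.68. Megakaryocyte-like cells had no Prrx1 UMI, and by the lower limit of the interval LEPR stromal cells were at least 112-fold higher. Prrx2 made up 11.2% of the PRRX UMIs in fibroblast-like cells (interval 5.74 to 19.2) and 0.233% in LEPR stromal cells (interval 0.0562 to 0.631).

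Endothelial-like cells had 230 and 247 CPM of Prrx1 in the lanes, which overlapped with LEPR stromal cells, but in 9 of 56 cells. In 10 of the 56 cells at least 3 of 10 pericyte and smooth muscle markers had a UMI, again by a rule chosen after the values were seen. These 10 had 10630 CPM of Rgs5, a pericyte gene, and 1 of 10 had a UMI of the endothelial cadherin Cdh5. They held all 29.5 Prrx1 UMIs of the class, as the mean of the lanes, at 968 CPM, and all 5 Ebf2 UMIs. The other 46 cells, of which 42 had a Cdh5 UMI and none an Rgs5 UMI, had no Prrx1 UMI. Across all kept barcodes 51 were pericyte-marked, 36 of them LEPR stromal cells, where Prrx1 stood at 316 and Ebf1 at 1066 CPM. Among the endothelial-like cells, Ebf1 was counted in both, at 1280 CPM in the 10 pericyte-marked cells and at 430 CPM, in 29 of 46 cells, in the others. Without the pericyte-marked barcodes the log2 ratio of LEPR stromal over endothelial-like cells went from 0.72 to 1.29 for Ebf1. For Runx1 it went from 5.37 to 7.77, and for Prrx1 from 0.23 to 3.11 with the count of 0 set to 3. The marked barcodes held all Prrx1 UMIs of the class, so the change of Prrx1 was fixed by leaving them out.

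Runx1 was counted both in stroma and in blood cells. LEPR stromal cells had 1179 and 1171 CPM in the lanes and a UMI in 92.0% of cells. Chondrocyte-like cells at 353 and 355 CPM and osteoblast/osteocyte-like cells at 308 and 333 CPM overlapped with each other. Fibroblast-like cells stood at 188 and 192 CPM, so that LEPR stromal cells were 6.17-fold higher (interval 4.47 to 8.78). With chondrocyte-like and osteoblast/osteocyte-like cells counted as fibroblast-like, the log2 ratio was 1.95 and just missed 4-fold, as it did at clustering resolutions of 0.4 and 1.2, both with a log2 ratio of 1.97, and with log-normalized counts, at 1.91. Megakaryocyte-like cells had 122 and 113 CPM, with a UMI in 62 of 130 cells, and erythroid-like cells 30.0 and 30.1 CPM, with a UMI in 41.99% of cells. At 2000 UMIs per cell these shares were 20.2% and 7.06%, beside 83.6% in LEPR stromal cells. Plasma cell-like cells, with a median of 30296 UMIs, had a Runx1 UMI in 13.04% of 46 cells, and 1.13% once thinned. In endothelial-like cells Runx1 had 3 and 4 UMIs in the lanes.

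The 8 erythroid-like clusters ranged from 10.5 to 66.5 CPM of Runx1. The lowest, cluster 8, led by Prelid2 and Rpp40, had an interval of 8.08 to 13.5, below those of the other 7 clusters. The 3 highest, clusters 5, 0 and 9, at 66.5, 62.9 and 53.1 CPM, overlapped with each other. Their median UMIs per cell, 9568, 5328 and 7137, were the lowest of the 8, and cluster 5 also had the highest median mitochondrial share, 12.01%. The part of RNA quality in these levels was not tested. The other members reached at most 5.57 CPM in any of the 8 clusters.

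Within the RUNX family, Runx1 had 80.3% of the UMIs in LEPR stromal cells, Runx2, the bone factor, 16.9% and Runx3 2.85%. In erythroid-like cells Runx3 took 23.3% and Runx2 1.17%. Runx2 was at 247 CPM in LEPR stromal cells and was also past 4-fold there, with a log2 ratio of 3.59 over fibroblast-like and 4.35 over endothelial-like cells. Cbfb, the partner of all RUNX proteins, was not called past 4-fold over fibroblast-like cells (log2 0.63, interval -0.56 to 2.17). Its interval reached past 4-fold, with 5.5 UMIs in fibroblast-like cells.

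As free RNA of broken stromal cells can give UMIs in droplets of other cells, the members were set against the level of 12 stromal markers in each class. The markers of the LEPR+ stromal list summed to 0.117% of their LEPR stromal level in erythroid-like cells, to 0.554% in megakaryocyte-like and to 9.71% in endothelial-like cells. Cxcl12, which the gate uses, alone gave 22189 of the 47713 CPM of these markers in LEPR stromal cells, so the levels were also taken from the 10 markers without Lepr and Cxcl12, a choice made after the values were seen. These 10 stood at 0.0977%, 0.732% and 8.50% of their stromal level in the same classes. The intervals of the ratios below cover the counting error of the member and of the markers in the class.

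At the level of the 12 markers, Ebf1, Ebf3, Foxc1 and Prrx1 would have 128, 127, 71.9 and 34.0 UMIs in erythroid-like cells, and 127.5, 130.5, 72.5 and 30 were counted. The ratios of counted UMIs to this level were 0.994, 1.03, 1.01 and 0.882, each with 1 in its interval. By the 10 markers the ratios were 1.19 (interval 0.985 to 1.42), 1.23 (1.02 to 1.47), 1.204 (0.940 to 1.52) and 1.053 (0.709 to 1.51), so that of Ebf3 lay just above 1. Runx1 had 3137.5 UMIs there, 21.9 times the level of the 12 markers (interval 20.98 to 22.9) and 26.2 times that of the 10. In megakaryocyte-like cells Runx1 had 174.5 UMIs, 18.1 times the level by the 12 markers and 13.7 times by the 10, while Ebf3 with 3 and Foxc1 with 2.5 UMIs lay below it, Ebf3 with its whole interval by the 10 markers alone. In endothelial-like cells Ebf1, Ebf2 and Prrx1 were above that level by both lists, and Ebf3, Foxc1 and Runx1 were below it, Runx1 with its whole interval. Neither list is a pure measure of free RNA: Cxcl12 alone gave 2581 of the 4633 CPM of the 12 markers in endothelial-like cells. Single markers differed more. In erythroid-like cells Ebf1, Ebf3, Foxc1 and Prrx1 had 0.939 to 1.10 times the level by Adipoq and 0.1999 to 0.234 times by Lepr, a gene of the gate. Runx1 had 23.3 times the level by Adipoq and 4.97 times by Lepr. The endothelial-like cells held 2 UMIs of Lepr and 0.5 of Adipoq, too few for a level by either alone. By the 12 markers, 6 of 18 pairs of member and class had an interval above the level, or 4 without the pericyte-marked and 5 without the B-marked barcodes, and by the 10 markers 7, with Ebf3 in erythroid-like cells added.

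**Figure D4:**
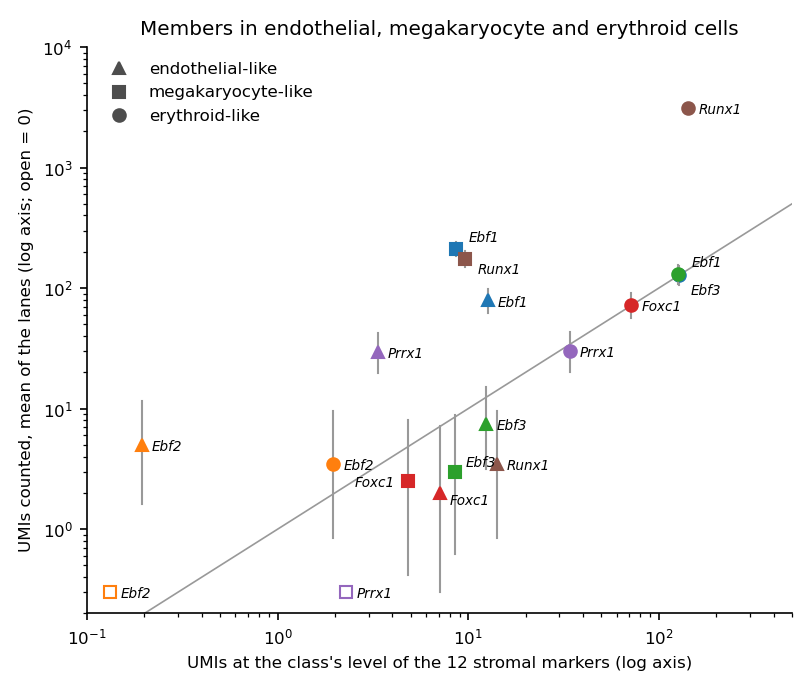
UMIs counted for each member in 3 classes (vertical axis, mean of the lanes with exact 95% intervals) against the UMIs it would have at the class's summed level of 12 stromal markers (horizontal axis), both on log axes; the line marks equality and open symbols a count of 0. In erythroid-like cells Ebf1, Ebf3, Foxc1 and Prrx1 lie within their intervals of the line and Runx1 lies 21.9-fold above it.

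The 201 LEPR+ stromal-like cells outside the gate had 1157 CPM of Runx1, 1096 of Ebf1, 722 of Ebf3, 305 of Foxc1, 161 of Prrx1 and 10.5 of Ebf2. The intervals of Ebf3, Foxc1 and Prrx1 lay below the level in the gated cells, and those of Runx1, Ebf1 and Ebf2 included it.

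Inside the LEPR stromal cells most members were found together. Ebf1, Ebf3, Foxc1 and Runx1 all had a UMI in 1319 of 1877 cells (70.3%), and 21 cells had none of the 6. The share with all 4 depended on depth: it was 34.8% in the 469 cells with the fewest UMIs and 92.3% in the 470 with the most. The level of Ebf1 was 1272 CPM in the former and 929 CPM in the latter, and that of Runx1 was 1379 and 1037 CPM. Within 4 such bins of depth, the number of cells with both genes of a pair was 0.992 to 1.09 times the product of their shares for the 15 pairs. From cluster 12, an unnamed cluster in which 26.6% of cells were called doublets, 137 cells were in the gate, with 462 CPM of Ebf1, 450.3 of Ebf3 and 483 of Runx1. In lane 1, Runx1 had 0 UMIs in 282 cells, 1 in 301, 2 in 318 and 3 or more in 976. Prrx1 had 0 UMIs in 1007 cells and 3 or more in 127. Cell-to-cell variance over that of Poisson counting at each cell's depth was 2.33 for Runx1, 2.14 for Ebf1, 1.83 for Ebf3, 1.49 for Foxc1, 1.31 for Prrx1 and 1.18 for Ebf2, beside 2.49 for Lepr. This ratio grows with the level of a gene, so the members are not ranked by it.

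The LEPR stromal cells were split into 6 sub-clusters without using the members. Over the 4 with more than 300 cells, the members differed little: Ebf1 by 1.30-fold between the highest and the lowest, Ebf3 by 1.41-fold, Foxc1 by 1.41-fold and Prrx1 by 1.31-fold. For Ebf2 the interval of the ratio included 1. Runx1 differed most, by 1.85-fold (log2 0.89, interval 0.77 to 1.01). The same sub-cluster, number 2, with 382 cells led by Mrap, Lgals1 and Serpina12, was the lowest for Ebf1, Ebf3, Foxc1 and Runx1, at 965, 808, 485 and 797 CPM. Its interval overlapped with that of sub-cluster 3 for Ebf1, at 974 CPM, and for Foxc1, at 571 CPM, and with none of the other 3 for Ebf3 and Runx1. It had the highest levels of the adipocyte hormone gene Adipoq, 1679 CPM, and of Cxcl12, 26834 CPM. Sub-cluster 1, led by Lars2 and Col27a1, had the most Runx1, Ebf1 and Ebf3, at 1475, 1256 and 1137 CPM, and the least Adipoq of the 4, 815 CPM. For Ebf3 it overlapped with sub-clusters 0 and 3, at 1125 and 1109 CPM, and for Runx1 with sub-cluster 3. Its median of mitochondrial UMIs, 4.78%, was the highest of the 4. Sub-cluster 0, led by Mmp13 and Iigp1, had the most Foxc1, 685 CPM, which overlapped with the 647 CPM of sub-cluster 1, and the most Prrx1, 330 CPM. Sub-cluster 3, led by Fos, Fosb and Egr1 after Gm26802, had 1459 CPM of Runx1.

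The 2 smallest sub-clusters stood apart. Sub-cluster 4, with 85 cells, a median of 2383 UMIs and 8.24% mitochondrial UMIs, had 1999 CPM of Ebf3, 1866 of Runx1 and 1699 of Ebf1, above all others. Sub-cluster 5, with 56 cells, had all 14 erythroid markers, and 71.4% of its cells were called doublets. It had the least of each member, from 7.06 CPM of Ebf2, whose interval overlapped with those of the other sub-clusters, to 562 CPM of Runx1. Without it the members' counts past 4-fold were the same in all 4 comparisons.

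**Figure D5:**
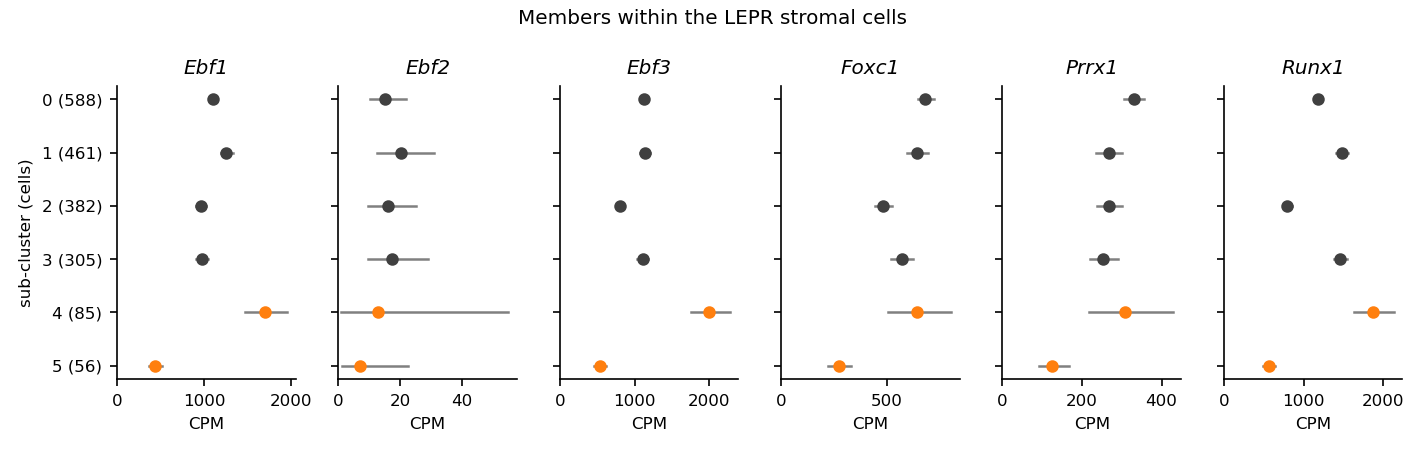
CPM of each member in the 6 sub-clusters of LEPR stromal cells, with exact 95% counting intervals; the number of cells is in brackets, and the 2 sub-clusters with fewer than 300 cells are orange. Sub-cluster 2 is the lowest of the 4 large ones for Ebf3 and Runx1, overlaps with sub-cluster 3 for Ebf1 and Foxc1, and Runx1 spans 797 to 1475 CPM over these 4.

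Genes with a like pattern were looked for over the 16 clusters, by Pearson's r of log2(CPM + 1) among 8693 genes. The 5 most alike to Ebf3 were Rspo3, Grem1, Mme, Vcam1 and Iigp1, with r from 0.988 to 0.993. For Foxc1 they were Fbln5, Svep1, Aldh1a2, Synpo and Sorbs2 (0.995 to 0.996), and those for Prrx1 included Adamts5, Sema5a, Bicc1 and Slit3 (0.995 to 0.998). Ebf2 was nearest to Enpp2, Aebp1, Col12a1, Ccdc80 and Timp1 (0.982 to 0.989), of which several encode matrix proteins. Ebf1 was nearest to Akap12, Arid5b, Ifi203, Hivep2 and Sox4 (0.959 to 0.990). Runx1 had the lowest likeness, with Cblb, Il1r1, Btg1, Atf7 and Hook3 at 0.949 to 0.962. Among the members, r was highest for Ebf3 with Foxc1, 0.981, and lowest for Ebf2 with Runx1, 0.757. The 16 clusters come from the same lanes and 8 of them are erythroid-like, so r describes a few levels of contrast.

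Wider lists of transcription factors were also compared. The LEPR stromal cells held 10749160 UMIs and the fibroblast-like cells 388769, so a gene reaches 50 UMIs mostly through the former, and genes high in fibroblast-like cells can fall short of it. Genes are therefore counted here with no minimum, where the whole interval lay past 4-fold. By this rule 0.59% of the 17960 genes with a UMI in either class were higher in LEPR stromal and 2.05% in fibroblast-like cells. Among the 6 members again 3 were higher and Ebf2 was lower. Only genes with many LEPR stromal UMIs can be called higher. Il7, with 378 there and none in fibroblast-like cells, had a lower limit of 3.69-fold. Runx1, Ebf3 and Foxc1 ranked 64, 82 and 182 of 17736 genes by UMIs in LEPR stromal cells. The share of all genes is therefore no measure for them or for the lists below. Of 40 other mesenchymal factors, 1 was higher and 4 were lower. The higher one was Snai2, a zinc finger factor of mesenchymal cells (log2 4.61, interval 3.06 to 6.89). Those lower were Klf4 (-4.73), Meox2 (-4.23), Osr1 (-4.04, interval -4.96 to -3.09) and Osr2 (-8.25, interval -13.68 to -5.47). The fat cell factors Cebpa (3.18, interval 1.74 to 5.24) and Pparg (2.06, interval 0.50 to 4.34) had 3.5 and 3 UMIs in fibroblast-like cells, and the bone factor Dlx5 (3.24, interval 0.75 to 8.55) had 1. Their intervals lay above 0 and reached below 4-fold. Of 15 family members and partner proteins, Runx2 was higher (log2 3.59, interval 2.23 to 5.47) and Prrx2 lower (-6.44, interval -8.71 to -4.61), and none of 14 blood factors lay past 4-fold in either direction. Against endothelial-like cells, where the shares of all genes were 0.645% and 2.77%, Runx2 was again higher and Cbfa2t3 lower, Snai2 was higher and Nr2f2 and Klf4 were lower, and the blood and vessel factors Gata2, Fli1 and Erg were lower. Against erythroid-like cells, genes with at least 50 UMIs were counted by the ratio. There 27 of 30 mesenchymal factors were at least 4-fold higher, where 30.1% of all 12414 genes were. The 30 are those of 40 listed that reached 50 UMIs, some in LEPR stromal cells alone, so nothing is read from this count. Of 11 blood factors, 9 were at least 4-fold lower, Gata1 (log2 -3.31) and Tal1 (-3.61) among them, where 9.05% of all genes were lower. Fli1 was the blood factor that was higher, with a log2 ratio of 7.14.

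Genes reported downstream of these factors in mice were compared in the same way. Cxcl12 is both in this list and in the gate, which fixes its ratio, so it is left out of the counts. Of the 8 other listed genes, 3 had a whole interval past 4-fold over fibroblast-like cells, Kitl, Vcam1 and Runx2, the last given above. Kitl, Vcam1 and Il7 also belong to the 12 LEPR+ stromal markers, so nothing is read from the number of genes that were higher. Kitl, the stem cell factor, stood at 1779 against 33.4 CPM (log2 5.73, interval 4.65 to 7.11). Vcam1, an adhesion molecule of the niche, stood at 1251 against 111 CPM (log2 3.50, interval 2.89 to 4.18). Il7, the B cell cytokine, stood at 70.3 CPM, with no UMI in fibroblast-like cells. Sp7, a bone factor, had 155 UMIs in LEPR stromal and none in fibroblast-like cells. Against endothelial-like cells 2 of the 8 passed, Vcam1 (log2 4.95, interval 3.73 to 6.57) and Runx2. Kitl was 3.89-fold higher there (interval 3.00 to 5.15).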

How the data were processed

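Single-cell RNA-seq was measured in 1 pooled sample run in 2 lanes, which the labels number as replicates 1 and 2. Per the labels the reads were processed with Cell Ranger on build mm10 (the count headers name version 3.0.2), and the authors deposited whole UMI counts, not normalized; the methods name a different release. Lane 1 held 116827845 and lane 2 held 120556381 UMIs. The members and lists were chosen with earlier results of these data known. Lanes were summed per barcode, and intervals use the mean of the lanes, since the squared lane difference was 0.559 of sampling noise. Clusters were made with Seurat 5.3.0 and sctransform 0.4.2 in R 4.3.3 (30 components, resolution 0.8). The 75 listed transcription factors were left out of the variable genes (27 were among them), so the members did not shape the clusters. The study's integration by anchors was not used, since the lanes hold the same cells.

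A cluster took the name of the list with the largest share of markers found (in at least 10% of cells, at 25% or more of the CPM of the highest cluster, at least 3 markers). It stayed unnamed if its median UMIs were under the overall median divided by 3 with no marker among its 10 leading genes. No cluster was endothelial-like, so after the data were seen the cluster holding fibroblast and endothelial markers was clustered again. Scrublet called 2.04% and 2.01% of cells in the lanes as doublets; these were kept, and removed as an alternative. Sums, ratios (a count of 0 set to 3) and exact Poisson and binomial intervals came from scipy 1.17.1 (Python 3.11.15; scanpy 1.11.5 for doublets), and were tested on simulated data. Fold changes past 4-fold were called among genes with at least 50 UMIs over both classes; the wider lists were counted by intervals wholly past 4-fold, a rule chosen after the values were seen. Named genes are the members, Lepr, Cxcl12, listed genes and markers, up to 5 leading genes of a cluster (in 25% of cells, 100 UMIs), and the 5 genes most like each member (500 UMIs), of which 1 is not reported here. No protein sequences were used here.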

Additional observations from a re-analysis of the deposited data

Results flagged for a closer look

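Signal of all 6 members was found in clusters that enter no comparison, with intervals above the upper bound of the erythroid-like level; in clusters 10, 11 and 15 this held for the members named here only. Runx1 stood at 233.6 CPM (interval 178 to 301) in cluster 11, which has a median of 1640 UMIs and 17.9% globin UMIs and is led by Slfn14, Xpo7 and Tmcc2, with a UMI in 69 of 250 cells and at most 5 UMIs in a cell. Ebf1 stood at 80.5 CPM in the same cluster, but all its UMIs lay in 1 cell that also carried B cell markers. In cluster 10, with 359 cells, a median of 2446 UMIs and 8.64% of cells called doublets, Ebf1 was at 80.9, Runx1 at 51.2, Ebf3 at 23.5, Prrx1 at 14.8 and Foxc1 at 13.9 CPM, in 12 to 32 cells each. Averaged over cells, which gives deep cells less weight, the CPM was 19.1, 16.6, 11.6, 3.85 and 1.45; 2 B-marked cells held 51 of the 84.5 Ebf1 UMIs. In cluster 12, outside the gate, Runx1 was at 169.9, Ebf3 at 150.2, Ebf1 at 143, Foxc1 at 91.5, Prrx1 at 41.1 and Ebf2 at 5.87 CPM in 96 cells; 26.6% of the whole cluster was called as doublets. Ebf1 was at 27.6 CPM in the 46 plasma cell-like cells, with 19.5 of 20 UMIs in B-marked cells.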

How the results depend on the processing

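No paired analysis was possible because there is 1 sample and no test. With the gate and the levels taken from a lane alone and the clusters kept, 1760 to 1769 cells were in the gate in place of 1877, and the counts were as for the sum: 3 members past 4-fold over fibroblast-like, 3 over endothelial-like, 6 over megakaryocyte-like and 6 over erythroid-like cells, 1 in the other direction, and 6 pairs above the stromal level. The count of 1 member, Ebf2, at least 4-fold higher in fibroblast-like cells became 0 with the listed factors kept in the clustering, at resolutions of 0.4 and 1.2, with log-normalized counts, and, as choices made after seeing the data, with the fibroblast cluster not split or with chondrocyte-like and osteoblast-like cells added to it. The last 2 widen the class by construction; for the others the cause was not tested. Runx1 fell short of 4-fold, leaving 2 members higher, at both other resolutions, with log-normalized counts and with the cells added. The 6 pairs became 3 with the listed factors kept and with the cluster not split, where no endothelial-like class exists. Prrx1 turned direction over fibroblast-like cells in 3 settings, to log2 0.073 with the listed factors kept, 0.074 with the cluster not split and 0.051 with the cells added. Of 462 alternative values of 24 log2 ratios, 403 stayed within the counting interval, 56 moved and 3 are those of Prrx1. Ebf1 over megakaryocyte-like cells went from 1.39 when thinned to 2000 UMIs to 8.73 without the B-marked barcodes. The lists were also counted by the ratio with at least 50 UMIs, in place of the whole interval. Of 31 mesenchymal factors tested, 5 were higher and 3 lower than in fibroblast-like cells. The counts were 3 and 0 of 12 family members, 1 and 0 of 6 blood factors, and 6 and 0 of 7 downstream genes. Some had 0 to 1 UMIs in fibroblast-like cells. Among all 9602 genes tested, 8.13% were higher and 2.28% lower. Resolution 0.4 also gave no endothelial-like class, and the pairs have no value on each cell's own CPM or when thinned. Depth limits the small classes most: 3 UMIs are 15.4 CPM in fibroblast-like and 24.3 CPM in endothelial-like cells.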
